A study of Drosophila melanogaster with 4 samples.

Results

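The decapentaplegic gene (dpp, CG9885) of Drosophila melanogaster and its flanking regulatory regions held 12 of the 6207 Homothorax peaks in the authors' list. Members are all peaks whose midpoint lies on chromosome arm 2L between 2415000 and 2505000 of FlyBase release 5, a window of 90 kb. The peaks come from chromatin immunoprecipitation followed by sequencing (ChIP-seq) with a crude guinea pig polyclonal serum against full-length Homothorax, the product of hth, and from input DNA that was sequenced without immunoprecipitation. The study has 2 ChIP and 2 input libraries. The strain of all 4 libraries, y cn bw sp, is marked by recessive body and eye colour mutations. Its labelled genotype combines oc[R3.2], lab[R4.2] and CG33964[R4.2] with the [1] alleles of y, cn, bw, sp, LysC, Rh6, GstD5, MstProx, Gr22b and Gr22d, and the sex of the embryos is given as unknown. Whole embryos were used. Both groups share the strain, the genotype and the stage. The stage label reads 0 to 8 h, whereas the protocol text shared by the libraries opens with a window of 8 to 16 h and then describes an 8 h lay. The stage label was used. Whole embryos mix all tissues, so the tissue from which a peak came cannot be told.

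Dpp is a secreted ligand of the bone morphogenetic protein family. It binds a complex of type I and type II receptor kinases, among them Thickveins and Punt. Within it Punt, a type II receptor, phosphorylates the type I receptor Thickveins, which in turn phosphorylates the transcription factor Mad. In the early embryo dpp is transcribed along the dorsal side and patterns the dorsal-ventral axis, and later it is expressed in stripes of the ectoderm and in restricted domains of the visceral mesoderm that surrounds the midgut. Homothorax belongs to the TALE homeodomain proteins. It brings its partner Extradenticle into the nucleus and binds DNA with it and with Hox proteins. In the visceral mesoderm the Hox protein Ultrabithorax activates dpp with the help of Extradenticle and Homothorax, whereas Abdominal-A keeps dpp off farther back. Genetic work divides the regulatory DNA of dpp into a shortvein region on the 5′ side, which holds the midgut enhancers, a haploinsufficient region around the coding exons and a disk region on the 3′ side, which drives expression in the imaginal discs.

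The question addressed is where on this locus Homothorax was bound, and how that compares with the rest of the genome. Each peak has a start, an end and 1 score as the authors deposited them, and the scores quoted below are the authors' own. The sources used here do not say what the score measures, so it serves to rank and describe peaks within this list. No value belongs to a single library. Read depth is unknown, replicate error cannot be given, and every comparison below is a description without a test. The positions of exons, promoters and known enhancers on release 5 were not analysed here, so no peak is assigned to the transcribed part of dpp, to a promoter or to one of the regulatory regions. In the release 6 gene table, used for names and gene order only, the nearest protein-coding genes are CG44139 on one side of dpp and Slh on the other, with oaf after Slh. A peak in the window may therefore belong to one of these genes.

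Homothorax peaks formed 3 clusters at dpp. Cutting the locus wherever neighbouring peaks lay more than 5 kb apart gave a run of 8 peaks at 2438969 to 2455091, a single broad peak at 2460417 to 2463772, and a run of 3 peaks at 2483560 to 2486234. Together they spanned 47.3 kb. The run of 8 was 16.1 kb long. Its peaks covered 7.10 kb of it and made up 59.1% of the 12.0 kb inside peaks at the locus, against 27.9% from the broad single peak and 12.9% from the run of 3. Each of the 3 clusters had 1 peak with a score of 40 or more, a level reached by 17.5% of the list. These were 51.25, 85.10 and 44.45 in the order of position. The division depends on the distance chosen, and the broad peak stood only 5.33 kb from the run of 8. Cutting at gaps over 2 kb gave 5 clusters, 2 of them without a score of 40 or more, and cutting at gaps over 10 kb gave 2 clusters, of which the first joined the run of 8 with the broad peak and held 2 such scores. Peaks were present in 5 of the 9 bins of 10 kb that make up the window.

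**Figure D1:**
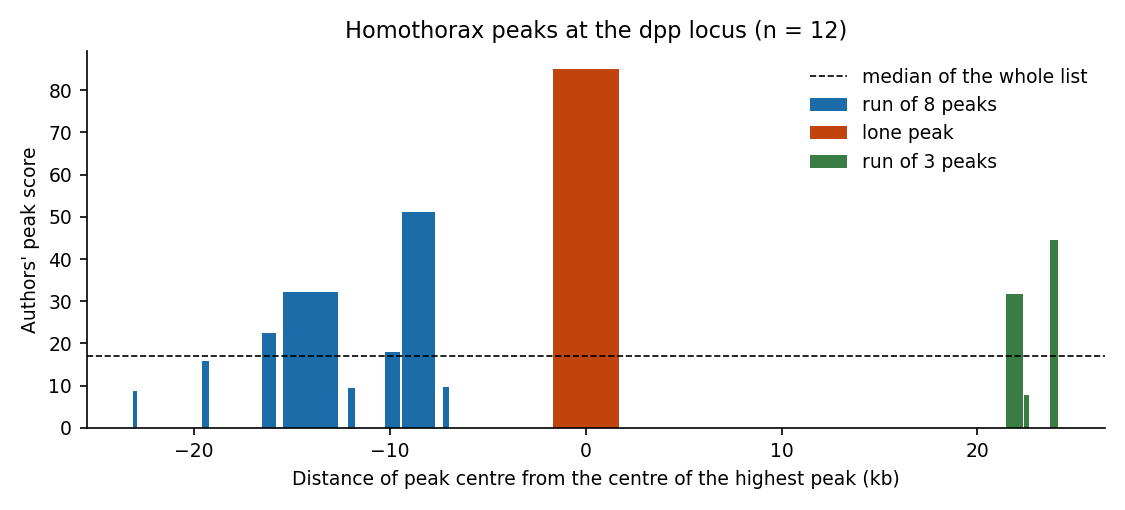
Each bar is 1 of the 12 peaks at dpp, drawn to scale along the horizontal axis as the distance in kb from the centre of the highest peak, with the authors' score as its height. Colours mark the 3 clusters and the dashed line is the median score of the whole list, 16.93. The highest bar, 85.10, stands alone between the run of 8 and the run of 3.

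The highest score of the locus, 85.10, belonged to the single broad peak at 2L 2460417 to 2463772. It was 3.36 kb wide, also the widest of the 12, and ranked 354th by score and 114th by width in the whole list. Its score lay above 94.3% of all peaks and was 5.03 times the list median of 16.93, a ratio that depends on the unknown scale of the score. The nearest peaks lay 5.33 kb away on one side and 19.8 kb on the other, so it counts as single at a limit of 5 kb and not at 10 kb. On the 6 chromosome arms 2L, 2R, 3L, 3R, 4 and X, 993 peaks were separated from both neighbours by more than 5 kb. Their median score was 15.24 and their median width 393 bp. Of these 993, 20 scored higher than the peak at dpp and 2 were wider. The peak was singled out as the highest and widest of the 12, so its rank among single peaks is a description only. Against peaks of like width its score was ordinary, since 60.8% of the 332 peaks of 2 to 4 kb scored lower.

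The run of 8 joined peaks of very different strength. Its strongest peak, at 2452719 to 2454374, was 1.66 kb wide and scored 51.25, above 87.3% of the list. Next came a peak at 2446623 to 2449416 with a score of 32.15. That peak was 2.79 kb wide, above 97.0% of the list in width but above only 77.3% in score. Among the 332 peaks of 2 to 4 kb, whose median score was 71.71, only 7.23% scored lower than it. The second widest peak at dpp was therefore one of the weaker peaks of its width.

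Of the other 6 peaks of the run, 2 lay above the list medians in both width and score. Those at 2445540 to 2446280 and 2451855 to 2452603 were 741 and 749 bp wide and scored 22.51 and 18.07, against list medians of 483 bp and 16.93. The peak at 2442521 to 2442850 scored 15.80, just under the list median. The remaining 3 peaks scored 8.83 at 2438969 to 2439170, 9.42 at 2449975 to 2450310 and 9.72 at 2454798 to 2455091, all under the lower quartile of the list, 11.51. The first of these opened the locus and was 202 bp wide, 1 bp above the narrowest peak width in the list. The others followed the 2 strongest peaks of the run, after gaps of 558 and 423 bp.

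In the run of 3, the highest score belonged to a peak narrower than the list median of 483 bp. The peak at 2485814 to 2486234 was 421 bp wide and scored 44.45, the third highest at dpp. Of the 3226 peaks of the list narrower than 0.5 kb, 99.5% scored lower, and 16 including this one scored as high or higher. The median score of that width class was 11.94. At 421 bp the peak was wider than 42.6% of the list. Score rises with width in the list, and the class holds many narrower peaks. The peak was singled out for its score, so its rank in the class is a description only. It was the last peak of the locus. Its neighbour at 2483560 to 2484418 was 859 bp wide and scored 31.60, and a peak of 274 bp at 2484473 to 2484746 scored 7.70, the lowest at dpp and above only 1.71% of the list. The lowest peak began 54 bp after the end of its neighbour, the shortest gap at the locus.

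**Figure D2:**
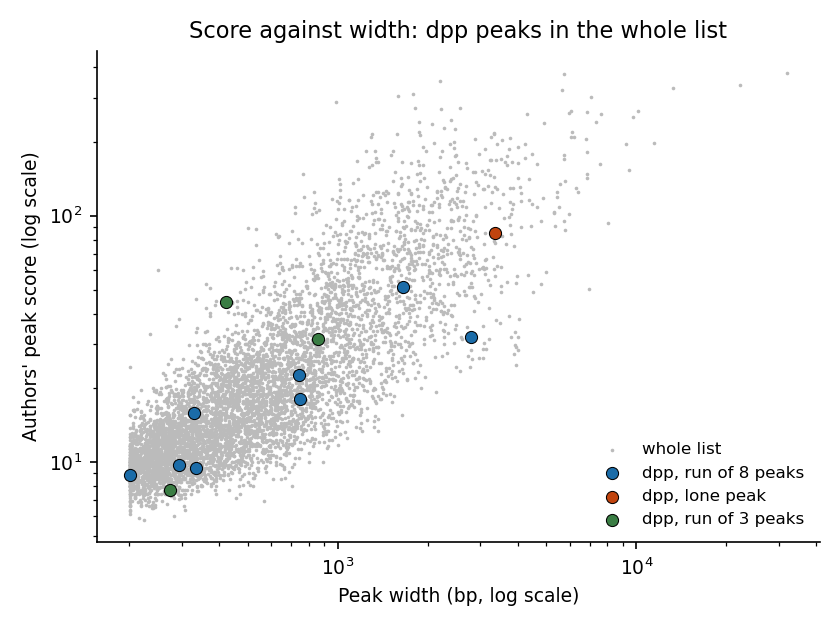
Each grey point is 1 peak of the whole list, with its width in bp on the horizontal axis and the authors' score on the vertical axis, both on log scales. Coloured points are the 12 dpp peaks by cluster. Most dpp peaks lie inside the grey cloud, while the peak with a score of 44.45 at 421 bp lies at its upper edge and the peak with a score of 32.15 at 2.79 kb lies low in it.

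Scores at dpp fell on both sides of the list median and stayed far below the list maximum of 379.52. The lowest was 7.70, the median 20.29 and the highest 85.10, against a median of 16.93 in the list and 17.07 on 2L. The difference was 3.36 from the whole list and 3.75 from the 6 arms. Peaks closer than 1 kb were also joined, with the highest score kept for each region, so the lower scores of close peaks drop out. The median was then 32.15 over 7 regions at dpp, against 20.5 over 3438 regions on the 6 arms, a difference of 11.7. The 95% interval on the median of the 12 deposited peaks, from binomial order statistics, ran from 9.42 to 44.45. The 16.93 of the list and the 17.07 of 2L lay inside it. It treats neighbouring peaks as independent, and peaks of 1 list are not replicates, so it is a description and no test. Of the 12 peaks, 7 scored above the list median, 5 above its upper quartile of 29.7 and 4 under its lower quartile of 11.51. Of the 12 peaks, 3 scored 40 or more, where 17.5% of the list did. A floor of 20 was reached by 6 of them, against 40.7% of the list. None of the 12 reached 100, which 4.32% of the list did. With 12 peaks these shares are close to the background and are no result about dpp. Peak width had a median of 581 bp against 483 bp in the list, and 2 of 12 peaks were wider than 2 kb, against 6.44% of the list. Score and width ranked alike across the 12 peaks (Spearman rho 0.88), as they did in the whole list (rho 0.81). Each pair of values belongs to 1 peak of 1 list, and neighbouring peaks are not independent.

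Several peaks at dpp lay close enough to be parts of 1 enriched region, as did many elsewhere on the arms. Of the 11 gaps between neighbouring peaks of the locus, 5 were under 1 kb, where 41.7% of the gaps on the 6 arms were that short. These gaps ran from 54 to 558 bp. In all 5 pairs the wider peak had the higher score, and on the 6 arms this held for 83.0% of 2456 such pairs. With 11 gaps and 5 pairs these values are close to the background and are no result about dpp. Joining peaks closer than 1 kb left 7 regions at dpp. The joined regions at 2445540 to 2450310 and 2451855 to 2455091 were 4.77 and 3.24 kb long, with the highest score inside each at 32.15 and 51.25. The region at 2483560 to 2484746 was 1.19 kb long with a highest score of 31.60. The single broad peak was unaffected by joining.

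The dpp peaks stood between long stretches without a peak. Before the first of them no peak was listed for 64.3 kb, back to a peak at 2374432 to 2374711 that was 280 bp wide and scored 15.22. After the last, no peak was listed for 264 kb, up to a peak at 2750093 to 2751166 that was 1.07 kb wide and scored 28.15. These are also the nearest peaks outside the window, 40.3 kb before it and 245 kb after it, whereas the first and last members lay 24.0 and 18.8 kb inside its limits. Of the 5888 gaps on the 6 arms, 61 were longer than the one after dpp (1.04%), 9 of them on 2L, and 483 were longer than the one before it (8.20%). The median gap was 1.64 kb. Whether reads can be mapped throughout these stretches was not tested. Wherever peaks on the 6 arms were parted by at least the distance that precedes dpp, the list broke into 490 stretches with a median of 6 peaks. Of these, 157 held 12 peaks or more, with a median length of 163 kb. The stretch at dpp was one of 6 that had as many within 47.3 kb or less. The distance that defines the stretches was read from the locus itself, so this count is a description only.

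**Figure D3:**
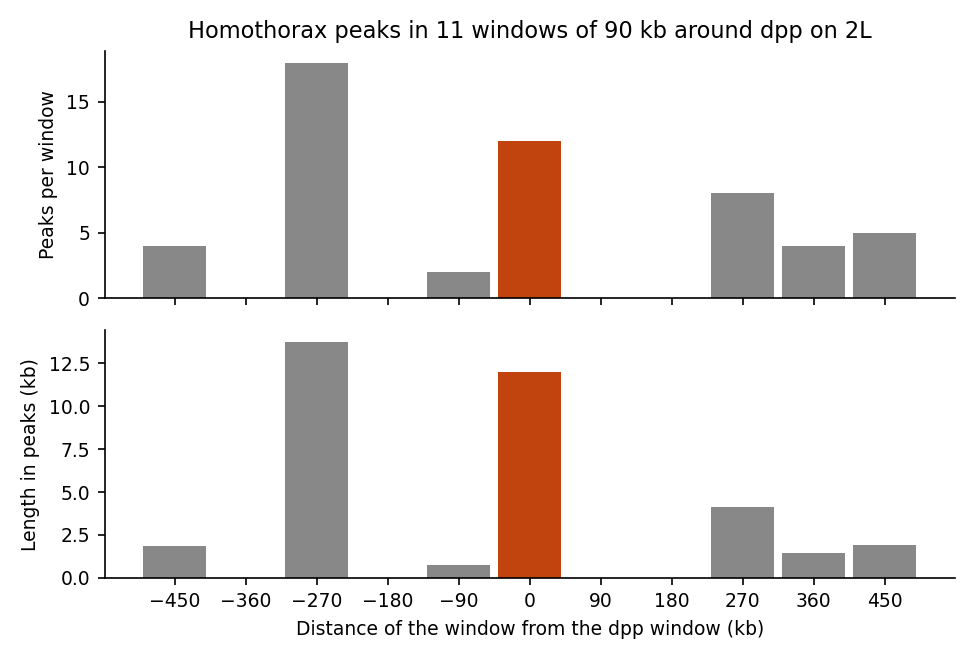
The bars give, for 11 windows of 90 kb on 2L, the number of peaks (top) and the length inside peaks in kb (bottom), against the distance of each window from the dpp window in kb. The dpp window is coloured, with 12 peaks and 12.0 kb. The windows on either side hold 2 peaks and none, and the window 270 kb before it holds 18.

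The 2 windows on each side of dpp carried few or no Homothorax peaks. The window just before it, 2325000 to 2415000, held 2 peaks with a top score of 15.22 and 0.745 kb inside peaks. The one before that, 2235000 to 2325000, held none. Both windows after it, 2505000 to 2595000 and 2595000 to 2685000, held 0 peaks. The next window out on the first side, 2145000 to 2235000, held 18 peaks with a top score of 168.21 and 13.7 kb inside peaks, all above the values at dpp. It was named after its values were seen. The dpp window itself had 133 peaks per Mb and 13.3% of its length inside peaks, compared with 61.3 peaks per Mb and 5.49% over 2L, taken from position 1 to its last peak.

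In peak number the dpp window stood in the upper part of the genome without being extreme. The 6 arms were divided into 1305 windows of 90 kb aligned with it, with a median of 2 peaks and a mean of 4.49 ± 6.57 (SD over all windows). At least 12 peaks were held by 147 windows, 11.3% of them, the dpp window included. More than 12 were held by 125 windows, 35 of them among the 248 on 2L, and the fullest held 49. No peak was listed in 402 windows (30.8%). By length inside peaks, 96 windows (7.36%) exceeded the 12.0 kb at dpp, and by top score 213 windows (16.3%) exceeded its 85.10.

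**Figure D4:**
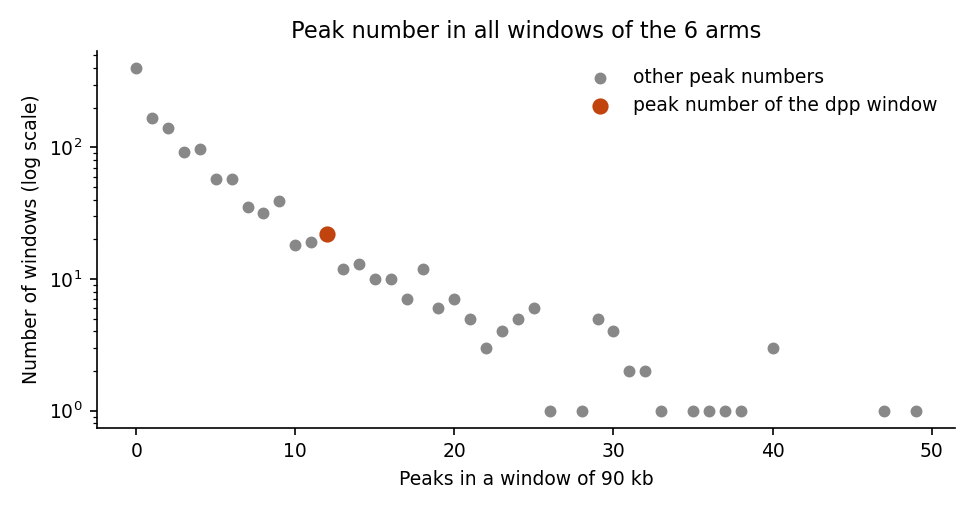
Each point gives how many of the 1305 windows of 90 kb on the 6 arms (vertical axis, log scale) held a given number of peaks (horizontal axis). The coloured point marks 12 peaks, the number at dpp, which 22 windows shared. The most common number was 0, in 402 windows.

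Set beside windows of like peak number, the dpp window had a top score near the median and more length inside peaks than most. The other windows with 10 to 14 peaks numbered 83. Their top score ranged from 28.01 to 258.41 with a median of 81.12, and 39 of the 83 exceeded the top score at dpp. Their length inside peaks had a median of 8.57 kb and ranged from 3.94 to 23.5 kb, and 15 of them exceeded dpp. Their widest peak had a median of 2.03 kb, and in 17 it was wider than the 3.36 kb peak at dpp. The 2 runs at dpp were also set beside runs of the same peak number, by top score. Among the 32 runs of exactly 8 peaks on the arms, the median top score was 68.25, and 21 had a higher top score than the run at dpp. Among 195 runs of 3, the median top score was 39.72, and 83 had a higher one than the run of 3 at dpp. Every dpp peak had another peak centre within 10 kb, as did 88.3% of the peaks on the 6 arms. Windows and runs of 1 list are not replicates, so no replicate error can be given for these ranks.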

How the data were processed

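The series has 1 peak table. Per the file headers its positions are on FlyBase release 5 and its lines were written by MACS, a peak caller. The submitters' processing notes list CASAVA 1.7.0.2 and 1.7.0.3, BWA, MACS2 and the build BDGP5, with no order or role. Per the labels' protocols, fixation took 15 min in 1.8% formaldehyde. The start, end and score of each peak were used as the authors deposited them. Not given in the sources used here are the scale of the score, the pooling of replicates, the threshold and any filters. Depth per library is unknown, so no precision follows from it.

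Analyses used Python 3.11.15, numpy 2.4.6, pandas 2.3.3, scipy 1.17.1 and matplotlib 3.10.9. Width is end minus start plus 1 bp. Counting of windows, runs and joined peaks was tested on 20 simulated lists and recovered what was planted. These lists had a single arm and peaks of equal width, and joining was tested at a longer limit than the 1 kb used here. Density covers each arm from position 1 to its last peak. Only whole windows aligned with the dpp window were counted, so the ends of an arm can lie in none. The 313 peaks off the 6 arms entered only values for the whole list. All 12 peaks are named, as set down with the design, along with 2 windows on each side. The locus and the quantities were chosen with earlier results of these data known. No test was run. Alternatives changed membership, window limits, joining of peaks, the score floor, the gap and the background. No sequence is printed, since no genome of release 5 was used here.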

Additional observations from a re-analysis of the deposited data

How the results depend on the processing

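Of 18 alternatives, 12 left the value within its 95% interval or, for counts and lengths, within 1.5 times. These limits only sort the alternatives and measure no replicate error. The intervals on the median score and on the share of peaks passing a floor rest on 12 peaks and are wide. A median difference of 11.7 after joining, against 3.36, was counted as inside. So were 6 of 12 peaks at a floor of 20, against 3 of 12 at 40. The tally of 12 of 18 is therefore no measure of stability. The number of peaks stayed at 12 with membership by any overlap and with the window trimmed or widened by 10 kb at each end. It was 7 in the upper 50% of the list by score and 7 after joining of peaks closer than 1 kb. The share of windows with at least as many peaks was 11.3% in the report, 15.7% on 2L only and 9.43% in the upper 50% by score. The 95% exact binomial interval on the 11.3%, 9.60 to 13.1%, treats windows as independent. All windows of 1 list were counted and they are not replicates, so the interval has no sampling error to measure. A score floor of 40 was passed by 3 of 12 dpp peaks, against 17.5% of the list. A floor of 20 was passed by 6, against 40.7%, and a floor of 100 by 0, against 4.32%. Each floor defines another share, and these counts are close to the background. With clusters ended by a gap over 2 kb there were 5 clusters, and over 10 kb there were 2. The median score exceeded that of the whole list by 3.36, that of 2L by 3.22 and that of the 6 arms by 3.75. After joining, with the highest score kept for each region, it exceeded that of the 6 arms by 11.7. This was counted as inside the wide interval on the median of 12 peaks, which was not made for the 7 joined regions. No paired analysis was possible because peaks have 1 value for the series, which also leaves no replicate to omit. Depth limits could not be set.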
